A study of Mus musculus with 16 samples.

Results

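The methylation of lysine 4 of histone H3 is written and erased by a small number of enzymes. The genes of 8 of them, and that of KDM6B, a demethylase of lysine 27, were followed here in hematopoietic stem cells (HSCs) of young and aged mice. The 9 genes were taken by name from the GENCODE M21 annotation of the mouse genome (build mm10), which holds 21851 protein-coding genes with a protein-coding start site. Of the 9, 6 encode methyltransferases (Kmt2a, Kmt2b, Kmt2c, Kmt2d, Setd1a and Setd1b) and 3 encode demethylases (Kdm5a, Kdm5b and Kdm6b). A locus was the gene body with 5 kb on either side, and a promoter reached 1 kb upstream and downstream from any start of a protein-coding transcript. All 9 genes were found in the annotation, and every peak that overlapped a locus by at least 1 bp was described.

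The HSCs were sorted from bone marrow of C57BL/6 mice aged 10 weeks (young) or 20 months (aged), and the study describes its mice as female, with marrow cells pooled before the sort in its experimental scheme. Both ages were sorted with the same surface markers, namely CD150+, c-kit+, Sca-1+ and negative for Lin, IL-7Rα, CD34, CD48 and Flt3. Neither group carried a genetic change or a treatment. Histone marks were mapped by chromatin immunoprecipitation and sequencing (ChIP-seq) for H3K4me3, H3K27me3 and H2AK119ub1 with 2 libraries for each mark and age, beside input libraries, making 16 libraries in 8 groups. The peaks came as 6 pooled lists, 1 for each mark and age, so there is no replicate value and no difference between the ages could be tested. As a check of the sort, 9 of 12 stem and progenitor genes carried promoter H3K4me3 at each age, 8 of them at both. Of the genes of positive sort markers, however, Ly6a (Sca-1) and Slamf1 (CD150) did so at neither age and Kit (c-kit) in aged HSCs only. Gata2 did so in young HSCs only. Among genes of other cells, 1 of 10 did so in young and 0 of 10 in aged HSCs.

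KMT2A and KMT2B, the closest relatives of Drosophila Trithorax, place H3K4me3 at a subset of promoters, and KMT2A is required for the maintenance of HSCs and is the target of chromosomal translocations in leukemia. KMT2C and KMT2D mainly place a single methyl group on lysine 4 at enhancers, whereas SETD1A and SETD1B, the SET1 enzymes, place much of the trimethyl mark at active promoters. KDM5A and KDM5B remove di- and trimethylation from lysine 4. KDM6B, also known as JMJD3, acts on the other side of the balance and removes methyl groups from lysine 27, the mark set by Polycomb repressive complex 2. H2AK119ub1 is set by Polycomb repressive complex 1.

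In both the young and the aged list, H3K4me3 covered the same stretch of DNA at 5 of the 9 loci, and 5 of these stretches lay in or upstream of Kmt2a, Kmt2b, Kdm5b and Kdm6b and at no promoter of another protein-coding gene. The Kmt2a stretch also lies in an exon of the antisense gene AC061963.1. They are shown because they are where the mark was listed at both ages. The sequences are those of the mm10 reference assembly as distributed by RefSeq, written 5′ to 3′ on the strand of the gene, with CpG dinucleotides in capitals. Annotated untranslated sequence was left out, and no run was longer than 300 bases.
Kmt2a, intron and AC061963.1 exon (chr9:44880152-44880355, minus strand): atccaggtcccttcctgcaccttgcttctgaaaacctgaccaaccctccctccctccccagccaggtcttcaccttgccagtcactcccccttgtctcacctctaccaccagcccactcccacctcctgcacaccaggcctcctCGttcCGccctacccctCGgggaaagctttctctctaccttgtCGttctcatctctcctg
Kmt2b, coding exon and intron (chr7:30588175-30588379, minus strand): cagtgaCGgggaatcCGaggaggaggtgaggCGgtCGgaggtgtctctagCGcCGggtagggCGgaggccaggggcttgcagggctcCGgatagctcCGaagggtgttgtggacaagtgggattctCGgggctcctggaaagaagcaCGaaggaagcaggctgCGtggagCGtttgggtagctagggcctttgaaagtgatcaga
Kmt2b, upstream (chr7:30589057-30589356, minus strand): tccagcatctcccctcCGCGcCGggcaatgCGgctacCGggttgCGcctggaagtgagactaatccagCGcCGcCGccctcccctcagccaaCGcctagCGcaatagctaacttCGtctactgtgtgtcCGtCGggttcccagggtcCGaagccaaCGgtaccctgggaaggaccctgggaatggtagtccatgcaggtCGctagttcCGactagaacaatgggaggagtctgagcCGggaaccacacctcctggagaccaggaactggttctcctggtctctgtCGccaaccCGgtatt
Kdm5b, upstream (chr1:134556658-134556957, plus strand): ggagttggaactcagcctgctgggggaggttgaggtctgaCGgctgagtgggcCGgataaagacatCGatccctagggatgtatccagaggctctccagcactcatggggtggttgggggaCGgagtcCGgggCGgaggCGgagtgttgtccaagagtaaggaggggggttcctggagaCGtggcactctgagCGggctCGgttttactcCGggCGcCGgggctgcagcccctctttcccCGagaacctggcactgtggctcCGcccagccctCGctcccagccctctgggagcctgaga
Kdm6b, intron (chr11:69409113-69409291, minus strand): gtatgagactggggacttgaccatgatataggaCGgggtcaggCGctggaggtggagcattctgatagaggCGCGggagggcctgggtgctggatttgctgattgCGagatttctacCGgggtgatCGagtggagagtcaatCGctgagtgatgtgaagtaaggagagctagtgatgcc
The 300 bases upstream of Kmt2b held 21 CpG dinucleotides and the 205 bases inside Kmt2b held 13. The 204 bases in the Kmt2a intron held 4, at 0.327 of the number expected from their C and G content. Sites listed at both ages in these genes were thus not alike in CpG content.

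A further 5 stretches are shown from promoter peaks of Kmt2c, Setd1b and Kdm5a that overlapped no H3K4me3 peak of the other age. The Kmt2c and Setd1b stretches were under peaks of the young list, and Kdm5a had 1 such peak in each list.
Kmt2c, intron, young (chr5:25497386-25497685, minus strand): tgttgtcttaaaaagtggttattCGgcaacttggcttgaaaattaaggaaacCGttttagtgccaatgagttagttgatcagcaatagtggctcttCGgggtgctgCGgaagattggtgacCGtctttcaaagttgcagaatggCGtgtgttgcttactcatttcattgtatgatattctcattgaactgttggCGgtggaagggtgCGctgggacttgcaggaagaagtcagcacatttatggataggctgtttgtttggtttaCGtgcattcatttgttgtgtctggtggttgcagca
Kmt2c, upstream, young (chr5:25499174-25499473, minus strand): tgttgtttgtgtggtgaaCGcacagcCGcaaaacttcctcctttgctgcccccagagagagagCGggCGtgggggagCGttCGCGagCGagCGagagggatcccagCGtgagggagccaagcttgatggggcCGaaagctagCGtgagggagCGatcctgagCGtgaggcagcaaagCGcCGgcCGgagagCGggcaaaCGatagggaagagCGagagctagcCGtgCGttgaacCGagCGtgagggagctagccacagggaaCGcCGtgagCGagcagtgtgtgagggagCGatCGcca
Setd1b, coding exon, young (chr5:123142957-123143087, plus strand): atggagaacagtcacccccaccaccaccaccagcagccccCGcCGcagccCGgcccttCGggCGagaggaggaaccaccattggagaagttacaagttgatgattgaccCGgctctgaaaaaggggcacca
Kdm5a, upstream, young (chr6:120363362-120363661, plus strand): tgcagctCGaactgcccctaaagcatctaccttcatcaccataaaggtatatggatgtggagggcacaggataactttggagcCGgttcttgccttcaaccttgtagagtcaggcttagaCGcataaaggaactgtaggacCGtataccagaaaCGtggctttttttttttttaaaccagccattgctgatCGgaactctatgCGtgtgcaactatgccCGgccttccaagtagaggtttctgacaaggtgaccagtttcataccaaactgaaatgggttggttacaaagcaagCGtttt
Kdm5a, upstream, aged (chr6:120363821-120364024, plus strand): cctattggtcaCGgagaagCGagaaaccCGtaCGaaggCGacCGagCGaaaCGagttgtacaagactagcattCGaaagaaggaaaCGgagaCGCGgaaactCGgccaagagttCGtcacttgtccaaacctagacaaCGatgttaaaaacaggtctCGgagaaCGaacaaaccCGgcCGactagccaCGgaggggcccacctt
The upstream Kmt2c stretch held 29 CpG dinucleotides in 300 bases, a ratio of observed to expected CpG of 1.03, and the intronic Kmt2c stretch held 9, a ratio of 0.697. The young Kdm5a stretch held 9 in 300 bases, a ratio of 0.576, and the aged one 20 in 204 bases, a ratio of 1.37. The stretches are cut at 300 bases, and over the whole peaks the ratios of Kmt2c were close, 1.04 upstream and 0.943 in the intron. Over the whole Kdm5a peaks they differed, 0.58 in young and 1.37 in aged HSCs. The Setd1b stretch held 6 in 131 bases.

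Promoter H3K4me3 was listed at 6 of the 9 genes in young HSCs and at 3 in aged HSCs. Over all protein-coding genes the share with a promoter peak was 33.8% in the young list and 23.3% in the aged list. Kmt2a, Kmt2b and Kdm5a had promoter H3K4me3 at both ages. Kmt2c, Setd1a and Setd1b had it in young HSCs only, no gene had it in aged HSCs only, and Kmt2d, Kdm5b and Kdm6b had it at neither age. By role, 5 of 6 methyltransferase genes had the mark in young and 2 in aged HSCs, against 1 of 3 demethylase genes at each age. These counts depend on the annotation. With RefSeq start sites, model starts included, Kmt2d and Kdm6b also had the mark in young HSCs, and Kdm6b in aged HSCs. The aged list is shorter as a whole, with 6723 H3K4me3 peaks against 11371. When the young list was limited to its 6723 highest-ranked peaks, 5 of the 9 genes kept the call, beside 23.4% of all protein-coding genes. Setd1b was the gene that lost it, and Kmt2c and Setd1a remained.

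**Figure D1:**
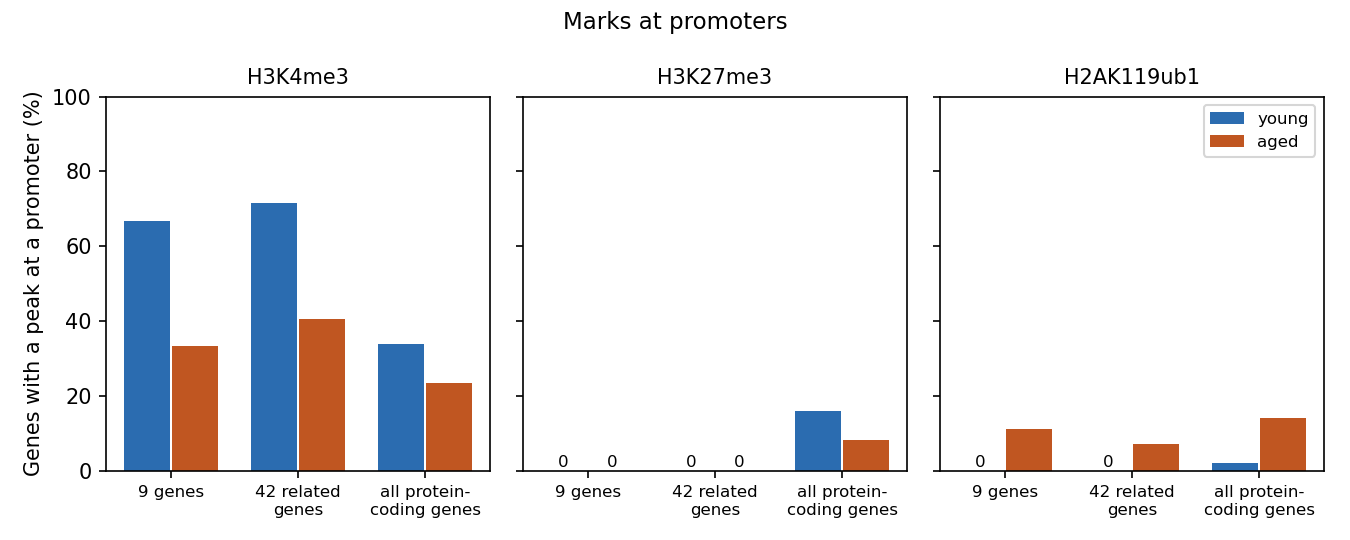
Percentage of genes with a peak at a promoter in each pooled list, for the 9 genes, the 42 related genes of H3K4 methylation and of histone demethylation at any lysine, and all 21851 protein-coding genes, which include both sets. Blue bars are young and orange bars aged HSCs, and 0 marks an empty bar. H3K4me3 was listed at 6 of the 9 genes in young and 3 in aged HSCs, and H3K27me3 at none.

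The whole loci gave 22 H3K4me3 peaks in young and 13 in aged HSCs. All 9 loci held a peak in the young list and 7 in the aged list, where Kmt2c and Setd1b had none. The shares over all protein-coding genes were 40.6% and 29.0%, but the loci of the 9 genes were longer, with a median of 49536 bp against 27380 bp. Corrected for length, the 9 loci held 3.26 young and 1.93 aged peaks per 100 kb, against 1.13 and 0.671 over all loci. The ratio of aged to young peak numbers was 0.591 in the 9 loci and also 0.591 in the whole lists. However, 1 of the 22 young and 4 of the 13 aged peaks lay at the promoter of a neighbouring protein-coding gene. These include all aged peaks of the Kmt2d and Setd1a loci, and the ratio of the 9 loci counts them. More peaks were listed in young HSCs at 5 loci, equal numbers at 4, and more in aged HSCs at 0. The bases covered were 7565 bp in young and 3527 bp in aged HSCs, a ratio of 0.466 beside 0.529 for the whole lists. Setd1a was the exception to the direction, with 243 bp in young and 331 bp in aged HSCs.

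**Figure D2:**
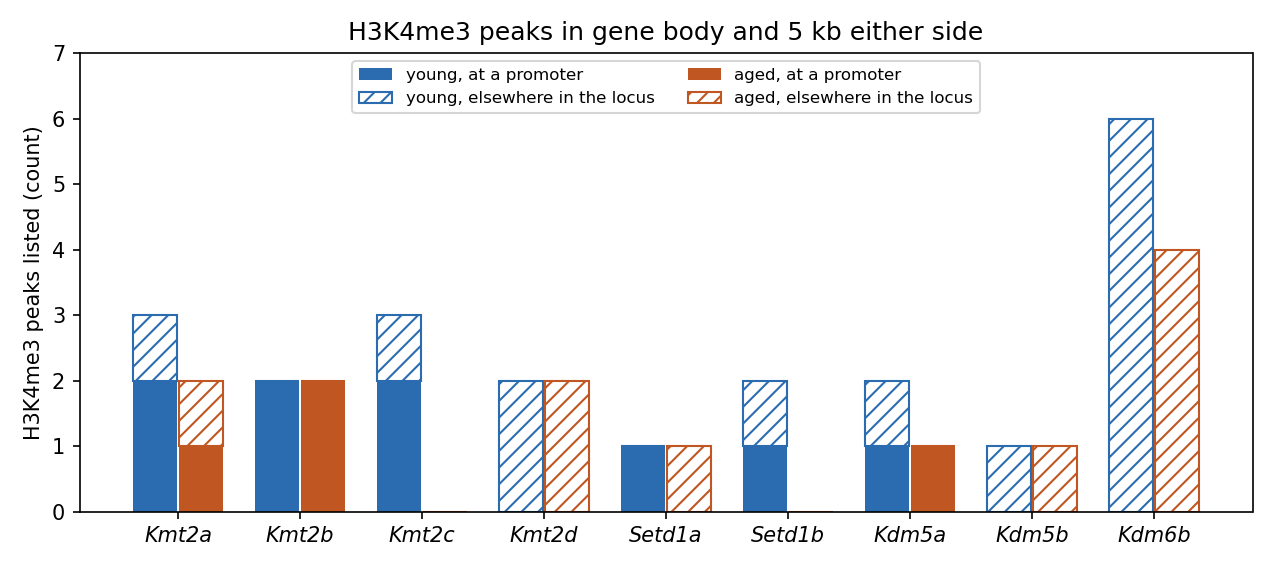
Number of H3K4me3 peaks listed in the gene body and 5 kb on either side of each gene, for young (blue) and aged (orange) HSCs. Filled bars are peaks at a promoter of the gene and hatched bars are peaks elsewhere in the locus. Kdm6b had the most, 6 in young and 4 in aged HSCs, with 0 of them at its promoter.

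The mark was rarely placed over a start site itself. Of the 13 H3K4me3 peaks at promoters of the 9 genes, counted over both ages, 1 covered a start site, the young peak of Setd1b. In the whole lists this share was 16.1% of promoter peaks in young and 15.4% in aged HSCs, so peaks beside the start site were the usual form in both lists. The start site under the Setd1b peak is the downstream one of 2 in GENCODE, 764 bp apart, and RefSeq lists no start there. From the nearest GENCODE start site, the summits of the 13 lay upstream in 7 cases and downstream in 6. In young HSCs, Kmt2a, Kmt2b, Kmt2c and Kdm5a had a summit on each side of a start site within 1.5 kb, and in aged HSCs Kmt2a and Kmt2b did. The promoters of the 9 genes were rich in CpG, with a median ratio of observed to expected CpG of 0.733 over 14 windows against 0.475 over all promoter windows. Kmt2c was highest at 0.951 and Kdm6b lowest at 0.188.

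**Figure D3:**
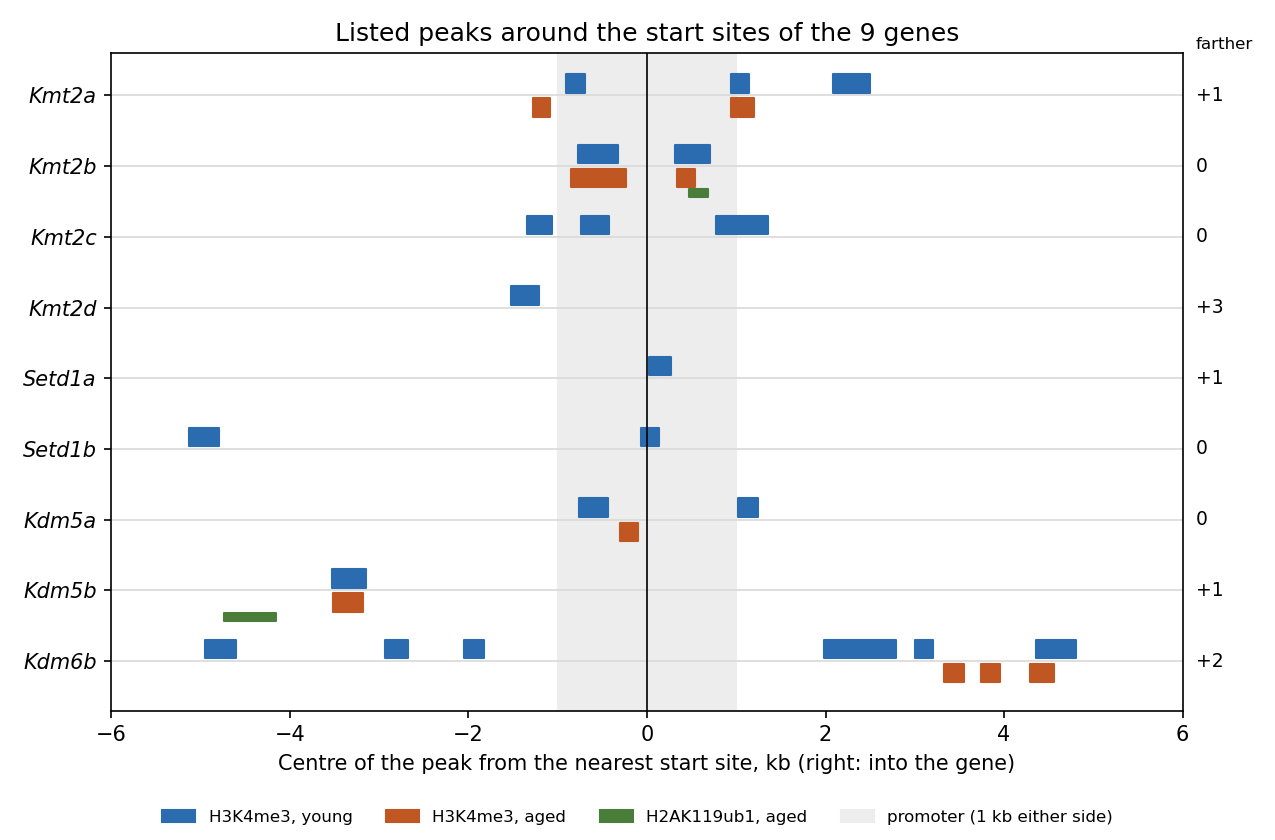
Position of the listed peaks around the start sites of the 9 genes, in kb from the nearest start site, with the direction of transcription to the right. Blue bars are young H3K4me3, orange bars aged H3K4me3 and thin green bars aged H2AK119ub1 peaks, drawn to their width. The grey band is the promoter, and the number at the right counts peaks of the locus farther away. Peaks flank the start sites of Kmt2a and Kmt2b at both ages and lie away from the start sites of Kdm5b and Kdm6b.

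For each H3K4me3 peak, the number of reads at its summit and the background under it were recovered from the deposited fold enrichment and p-value. The lowest background was 3.70 reads in the young list and 3.52 reads in the aged list, and at that background the lowest pileup listed was 13 reads at both ages. Pileups in the 9 loci ran from 16 to 26 reads in young HSCs, with a median of 21 reads against 20 in the whole list. In aged HSCs they ran from 16 to 24 reads, with a median of 20 against 19. The medians in these loci were thus 1 read above those of the whole lists at both ages. A peak that is missing from a list can have been below the limit of detection, and its absence does not show that the mark was gone. The 95% intervals given with pileups are exact Poisson intervals and cover counting error only.

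**Figure D4:**
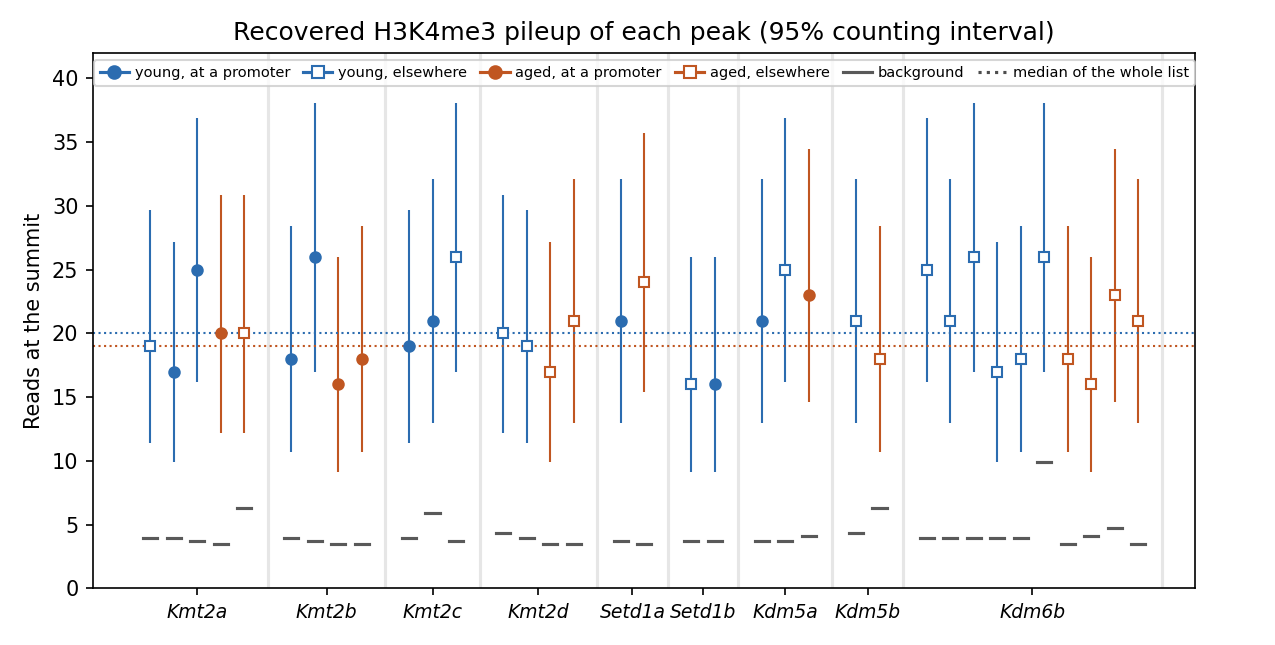
Reads at the summit of each H3K4me3 peak in the 9 loci, with exact Poisson 95% intervals, for young (blue) and aged (orange) HSCs. Filled circles are peaks at a promoter of the gene, open squares are other peaks of the locus, grey dashes are the background under each peak, and dotted lines are the medians of the whole lists, 20 reads in young and 19 in aged HSCs. All peaks fall between 16 and 26 reads and their intervals overlap between the ages.

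Of the 22 young peaks, 6 overlapped an aged peak, a share of 27.3% (Wilson 95% interval 13.2 to 48.2) beside 31.5% of the whole young list. In the aged list 7 of 13 peaks had a young overlap, 53.8% (29.1 to 76.8) beside 53.1%. The sharing between the ages was close to that of the lists as a whole. The Wilson intervals treat peaks as independent, although several lie in the same locus, and cover no spread between mice or libraries. These overlaps made 7 pairs at 5 loci, and in all 7 the intervals of the pileups overlapped. The fold enrichment was higher in young HSCs in 4 pairs and higher in aged HSCs in 3. The 16 young peaks without an aged overlap had a median of 21 reads at the summit, and the 6 with one had a median of 20.5. In aged HSCs the 6 peaks without a young overlap had a median of 22 reads, and the 7 with one had 18. Within 200 bp of a peak of the other age lay 9 of the 22 young and 10 of the 13 aged peaks. Part of this split thus rests on the 1 bp overlap rule, and the differences between the medians were not tested.

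Kmt2a (chromosome 9, 44803355 to 44881296, minus strand) had 3 H3K4me3 peaks in young and 2 in aged HSCs. The intronic peak whose sequence is shown above had 17 reads (9.9 to 27.2) and 3.63-fold enrichment in young HSCs, and 20 reads (12.2 to 30.9) and 4.64-fold in aged HSCs. Its summits were 77 bp apart, and it was the only part of the locus listed at both ages. It reached into the promoter by its near edge alone, 941 bp from the start site in young and 936 bp in aged HSCs. Upstream, the young peak at 44881987-44882205 had 25 reads (16.2 to 36.9) and 5.53-fold enrichment, a higher rank by −log10 q-value than 93.6% of its list. The aged peak on that side began 173 bp farther upstream, outside the promoter at 1082 bp from the start site. It had 20 reads over a background of 6.33 reads and 2.87-fold enrichment. Both upstream peaks and the intronic peak of both ages overlapped exons of AC061963.1, an antisense gene, so none of them can be given to Kmt2a alone. The remaining young peak, in a coding exon 2082 bp into the gene, had 19 reads.

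Kmt2b (chromosome 7, 30568858 to 30588726, minus strand) was the gene with the most similar pattern at both ages, with 2 promoter peaks in each list at overlapping positions. Upstream of the start site, the young peak had 26 reads (17.0 to 38.1) and 5.74-fold enrichment, and the aged peak had 18 reads (10.7 to 28.4) and 4.20-fold. The aged peak was nevertheless wider, at 615 bp against 442 bp. Both covered the start of the microRNA gene Mir3569. Inside the gene, the young peak had 18 reads and 3.83-fold enrichment and the aged peak 16 reads and 3.76-fold. The covered bases were 834 bp in young and 820 bp in aged HSCs.

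Kmt2c (chromosome 5, 25271798 to 25498783, minus strand) had 3 young peaks around its start site and none in its locus in aged HSCs, where the nearest listed peak was at least 29095 bp away from them. The peak inside the gene had 19 reads (11.4 to 29.7) and 4.03-fold enrichment. The upstream promoter peak, over the CpG-rich stretch shown above, had 21 reads over a background of 5.94 reads and 3.17-fold enrichment. The strongest of the 3 lay 1060 bp upstream, just outside the promoter, with 26 reads (17.0 to 38.1), 5.74-fold enrichment and a higher rank than 95.8% of the list. Both upstream peaks were in an intron of the long noncoding RNA gene 4831440E17Rik, 107 bp and 738 bp from its start. Neither of them can therefore be given to Kmt2c alone. All 3 young peaks of this locus, of which 1 was high in its list, were without an aged counterpart.

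Kmt2d (chromosome 15, 98831669 to 98871204, minus strand) had 2 H3K4me3 peaks at each age but none at its promoter. In both lists a peak at its 3′ end lay at the promoter of Prkag1, which encodes a regulatory subunit of AMP-activated protein kinase. It was a single young peak of 20 reads and 3.92-fold enrichment, and 2 aged peaks of 17 and 21 reads with 3.98-fold and 4.86-fold enrichment. The other young peak began 1205 bp upstream of the Kmt2d start, over exons of the noncoding genes Gm49437 and 5730414N17Rik, with 19 reads and 4.03-fold enrichment. It was not listed in aged HSCs, and a RefSeq model transcript of Kmt2d that starts 404 bp farther upstream would bring it into a promoter.

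Setd1a (chromosome 7, 127776670 to 127800122, plus strand) had a young peak in untranslated sequence, beginning 27 bp after a start site, with 21 reads (13.0 to 32.1) and 4.68-fold enrichment. That start site is the upstream one of 2 in GENCODE, 719 bp apart. RefSeq lists the other alone, and the peak lies upstream of that one. No aged peak overlapped the young peak. The aged peak of the locus lay at the other end, at the promoter of Hsd3b7, which encodes an enzyme of bile acid synthesis, with 24 reads (15.4 to 35.7) and 5.53-fold enrichment. Equal peak numbers at Setd1a therefore stood for different sites.

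Setd1b (chromosome 5, 123142193 to 123168629, plus strand) had a young peak of 200 bp over a start site, with 16 reads (9.15 to 26.0) and 3.61-fold enrichment. That start site is the downstream one of 2 in GENCODE, 764 bp apart, and is not among the RefSeq starts. The peak ranked above 14.9% of the young list, the lowest rank among the 9 young promoter peaks. A second young peak 4789 bp upstream, in exons of the noncoding genes AI480526 and Gm38102, had the same 16 reads. The aged list held none in the locus, although an aged peak lay 825 bp from this second one, outside the 5 kb flank.

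Kdm5a (chromosome 6, 120364124 to 120444574, plus strand) starts beside Ccdc77, and its upstream peaks lay in introns of that gene. A protein-coding transcript of Ccdc77, not among the start sites used for promoters here, begins 669 bp from the young and 332 bp from the aged upstream peak. Neither of these peaks can therefore be given to Kdm5a alone. The young upstream peak had 21 reads (13.0 to 32.1) and 4.68-fold enrichment, and the aged peak had 23 reads (14.6 to 34.5) and 4.69-fold. The promoter call was the same at both ages, but the peaks did not overlap and were 134 bp apart. The near edge was 437 bp from the start site in young and 100 bp in aged HSCs, and the summits were 602 bp and 224 bp upstream. A young peak inside the gene, beginning 1017 bp from the start, had 25 reads and 5.53-fold enrichment and no aged counterpart.

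Kdm5b (chromosome 1, 134560171 to 134635285, plus strand) had no H3K4me3 at its promoter at either age. A single peak upstream of it, in intergenic DNA, was listed at both ages with summits 13 bp apart, the closest of all pairs. It had 21 reads (13.0 to 32.1) over a background of 4.35 reads and 4.11-fold enrichment in young HSCs. In aged HSCs it had 18 reads (10.7 to 28.4) over 6.33 reads and 2.59-fold enrichment, above 0.238% of the aged list by q-value. The lower fold came with a higher background as well as with fewer reads, and their parts in it were not tested. Its near edge was 3152 bp from the start site in young and 3186 bp in aged HSCs.

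Kdm6b (chromosome 11, 69398508 to 69413675, minus strand) had the densest H3K4me3 of the 9 loci and none within 1 kb of its single GENCODE start site. The mark covered 2302 bp, or 9.15% of the locus, in young HSCs and 933 bp, or 3.71%, in aged HSCs. Inside the gene, 3 young peaks lay in introns 1986 to 4354 bp from the start site, with 26, 21 and 25 reads. The aged list held 3 intronic peaks 3325 to 4286 bp from the start, with 21, 23 and 16 reads. In this stretch 1 pair overlapped, at the sequence shown above, with 5.24-fold enrichment in young and 3.32-fold in aged HSCs. The widest peak of all the loci, 809 bp with 26 reads and 5.44-fold enrichment, lay nearest to the start among the young peaks inside the gene, and no aged peak overlapped it.

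Upstream of Kdm6b, 3 further young peaks in intergenic DNA had 17, 18 and 26 reads, the last over a background of 9.90 reads and with 2.48-fold enrichment, the lowest fold of the young peaks described here. No aged peak lay on that side. The fourth aged peak of the locus was at its 3′ end, at the promoters of Naa38 and Cyb5d1, with 18 reads. RefSeq places the known start of Kdm6b 2519 bp upstream of the GENCODE start and lists model starts both upstream and inside the gene. With RefSeq start sites, Kdm6b had promoter H3K4me3 at both ages, in aged HSCs by model starts inside the gene only. The promoter calls of Kdm6b thus depend on the annotation, and the start site in use in HSCs cannot be read from peak lists.

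H3K27me3, the substrate of KDM6B, was not listed at any of the 9 promoters, beside 16.0% of protein-coding genes in young and 8.24% in aged HSCs. The 9 loci held 1 region in the young list and 0 in the aged list, beside 27.8% and 16.5% of all loci with a region. Per 100 kb this was 0.148 young regions, against 3.01 over all loci. The region lay beyond the 3′ end of Kdm5b (chr1:134639492-134640001), was 510 bp wide and had 2.92-fold enrichment, below the list median of 3.10. An aged region lay 731 bp from it, outside the 5 kb flank. None of the 9 loci thus had H3K27me3 inside the gene in either list.

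H2AK119ub1 was not listed in any of the 9 loci in young HSCs and was listed in 4 in aged HSCs. The shares of all loci were 5.99% and 29.0%, and the aged list had 17768 regions against 2593 in the young list. Corrected for length, the 9 loci held fewer aged regions than all loci did, 0.593 against 1.22 per 100 kb. At promoters the numbers were 0 and 1, beside 1.91% and 14.0% of genes. The promoter region was that of Kmt2b (chr7:30588034-30588244), with 211 bp, 3.62-fold enrichment and a higher rank than 80.4% of its list. It overlapped the aged H3K4me3 peak inside Kmt2b by 70 bp, the last 70 bases of the Kmt2b intronic sequence shown above. It was the only overlap of different marks of 1 age in the 9 loci, and a pooled list does not show whether both marks sat on the same chromatin.

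The other 3 aged H2AK119ub1 regions lay away from the promoters of the 9 genes, and 2 of them were at promoters of neighbours. At the 3′ side of Kmt2a a region of 712 bp with 2.93-fold enrichment lay at Tmem25, and at the 3′ end of Kdm6b a region of 399 bp with 3.26-fold enrichment covered the start of Tmem88. The last lay 4157 bp upstream of Kdm5b in intergenic DNA (chr1:134555434-134556014), with 3.68-fold enrichment, the highest of the 4. It was on the same side as the Kdm5b H3K4me3 peak but did not overlap it. No region of the 9 loci was shared between the ages, beside 7.07% of the whole aged H2AK119ub1 list and 15.4% of the young H3K27me3 list.

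Each of the 9 genes shared its set of calls over the 6 lists with many others. Kmt2a and Kdm5a had promoter H3K4me3 at both ages and nothing else, as did 15.0% of protein-coding genes, among them Wdr5, Ash2l and Ncoa6, which encode subunits of the KMT2 complexes, Paxip1, Kmt2e, Smyd3, Prdm9, Jmjd1c, Kdm4a, Kdm4c, Kdm4d, Kdm5c, Kdm6a and Riox2. Kmt2c, Setd1a and Setd1b had young H3K4me3 alone, as did 12.9% of genes, among them Rbbp5, Dpy30, Men1, Cxxc1, Wdr82, Hcfc1, Hcfc2, Pagr1a, Setd7, Setmar, Kdm2a, Kdm3a and Phf8. Kmt2b, with aged H2AK119ub1 beside H3K4me3 at both ages, had the least common set, found in 1.41% of genes, including Bod1l and Kdm1b. Kmt2d, Kdm5b and Kdm6b had no call, like 45.0% of genes, among them Psip1, Smyd1, Smyd2, Kdm1a, Kdm3b, Kdm5d, Uty, Kdm7a, Phf2, Kdm8 and Riox1. Kdm5d and Uty lie on the Y chromosome, which female mice lack, so their missing calls carry no information on the marks.

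The 42 related genes, the subunits of the methyltransferase complexes and the remaining enzymes of H3K4 methylation and histone demethylation, were counted in the same way. Promoter H3K4me3 was listed at 30 (71.4%) in young and 17 (40.5%) in aged HSCs, beside 33.8% and 23.3% of all protein-coding genes in lists of 11371 and 6723 peaks. It was listed at both ages in 16, in young HSCs only in 14, in aged HSCs only in 1 (Kdm4b) and at neither age in 11. The 11 include the Y-linked Kdm5d and Uty, which female mice lack and which stay in all counts of the 42 and of the other demethylase genes. Of the complex subunits, 13 of 14 were marked in young and 5 of 14 in aged HSCs, and how far the shorter aged list enters this difference was not tested. The SET1 complex components Cxxc1 and Wdr82 and the shared core subunits Rbbp5 and Dpy30 were marked in young HSCs only, whereas Wdr5 and Ash2l of the same core were marked at both ages. Of the other demethylase genes 12 of 21 were marked in young and 9 of 21 in aged HSCs, and of the other methyltransferase genes 5 of 7 and 3 of 7. H3K27me3 was listed at 0 of the 42 promoters at either age. H2AK119ub1 was listed at 0 in young HSCs and at 3 in aged HSCs, those of Bod1l, Kdm1b and Kdm2b, or 7.14% beside 14.0% of all protein-coding genes.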

How the data were processed

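ChIP-seq peaks of H3K4me3, H3K27me3 and H2AK119ub1 in young and aged HSCs were analysed. The submitters' processing notes name Bowtie2, MACS2 2.2.6 and build mm10. The authors deposited 1 pooled list for each mark and age. Each deposited list gives for every peak a linear fold enrichment ratio, the −log10 of the p-value and of the q-value, and an integer score made from the q-value. H3K4me3 lists are narrow peaks (q-value of 0.05 in their names) and the others broad regions (0.1), whose values are averages over a region. The names in the broad lists carry 1 library number, so it is not certain that both libraries entered them. Lists of single libraries were not analysed here, and columns of single samples numbered 0. The lists do not state the depth of the libraries.

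The analysis kept chromosomes 1 to 19, X and Y and set aside 11 peaks on scaffolds. Overlaps of at least 1 bp were found with numpy 2.4.6 and pandas 2.3.3 (Python 3.11.15), intervals came from scipy 1.17.1, and counts of shared peaks were checked with bedtools 2.31.1. Promoters were 1 kb on either side of the 41438 protein-coding start sites of the basic GENCODE M21 set, and exons, introns and loci came from the comprehensive set. H3K4me3 pileups were recovered from fold = (pileup + 1) / (background + 1) and the Poisson p-value, and were whole for 100% of peaks with a tolerance of 0.001 in −log10 p. Overlap and recovery were tested on simulated data. Sequence was read with pysam 0.24.0, and plots were drawn with matplotlib 3.10.9.

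The 9 genes, the related genes and the markers were chosen with earlier results of these data known. All 9 genes were named. Neighbouring protein-coding genes were named where a described peak overlapped their promoter, and related genes where they carried H3K27me3 or H2AK119ub1 or had the same calls as one of the 9. Noncoding and overlapping genes under the peaks, and Kdm4b, were named after their values were seen. No test was run, since pooled lists hold no replicates.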

Additional observations from a re-analysis of the deposited data

How the results depend on the processing

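No paired analysis was possible because each list pools its libraries, and no library could be left out in turn. Of 112 recomputed counts and shares, 88 stayed within the limits set for them and 24 moved. Many of the 88 were values of 0 that stayed 0, and under the stricter settings no other value was possible. The limits also let large shifts pass, such as a young shared share of 27.3% that went to 14.3% or 40.9%. When only peaks with −log10 q-values from 4 upward were kept, the aged promoter H2AK119ub1 call fell from 1 gene to 0, H3K4me3 peaks in the loci from 22 to 14 in young and from 13 to 8 in aged HSCs, H3K27me3 from 1 region to 0 and H2AK119ub1 from 4 to 0. The aged H3K4me3 bases then fell from 3527 bp to 2268 bp and the aged shared share from 53.8% to 25.0%, or 2 of 8 peaks. With equal numbers of top peaks at both ages, the young H3K4me3 peaks again numbered 14, the H3K27me3 region was lost, and 1 H2AK119ub1 region of 581 bp was left, with 0 at promoters. In the gene bodies alone there were 10 young and 5 aged H3K4me3 peaks covering 3734 bp and 1179 bp, 0 H3K27me3 regions and 1 H2AK119ub1 region of 211 bp. The lost H3K27me3 region took its 510 bp to 0 under each of these 3 settings, and the H2AK119ub1 bases went from 1883 bp to 0 under the q-value limit. A smaller number of listed peaks or a smaller region is part of each of these settings.

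Young H3K4me3 stayed at 5 to 8 genes and aged at 2 to 4 over all promoter settings. Kmt2a lost its call at both ages with promoters of 500 bp, and in aged HSCs also when the overlap had to be 50% of the peak. Setd1b lost its young call under both limits on rank. Kmt2d and Kdm6b gained a young call with promoters of 2 kb. The 3 remaining settings were chosen after seeing the data. RefSeq start sites gave Kmt2d and Kdm6b a young and Kdm6b an aged call. The protein-coding start sites of the comprehensive annotation changed no call of the 9 genes. Counting peaks within 200 bp as shared raised the aged shared share to 76.9%, or 10 of 13 peaks.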
